A study of Mus musculus with 12 samples.

Results

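The liver-enriched transcription factors Foxa1, Foxa2, Foxa3, Cebpa, Cebpb, Cebpd, Onecut1 and Prox1 were followed in nascent RNA of mouse liver over the day. These 8 genes were chosen by name as factors that define the hepatocyte outside the nuclear receptors, and all 8 were among the 21490 gene symbols of the table. Nascent-Seq reads RNA in the course of transcription, isolated with the chromatin pellet of liver nuclei. Livers of adult C57BL/6 mice (3 to 6 months old, wild type, no drug or transgene named) kept for at least 2 weeks in 12 hr of light and 12 hr of dark were taken every 4 hr from ZT0 to ZT20, with zeitgeber time (ZT) counted from lights on. Each of the 6 time points had 2 replicates, which gave 12 libraries and no separate control group. The labels do not say whether a replicate is 1 animal or several, so p-values measure the spread between these libraries. The signal is in reads per exon base pair (rpbp), scaled by the authors to the same read number in every library and taken without regard to strand. The libraries of ZT8 and ZT20 were sequenced in 2 lanes and the other 8 in 1 lane, so the number of lanes and these time points cannot be told apart.

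The 3 FOXA proteins are winged-helix (forkhead) factors that can bind their sites in closed chromatin and are needed for liver development. C/EBPα, C/EBPβ and C/EBPδ are basic leucine zipper proteins that bind DNA as dimers: C/EBPα supports metabolic genes and growth arrest of the hepatocyte, and C/EBPβ and C/EBPδ are known for their induction in the acute-phase response. ONECUT1 (HNF6) is a cut-homeodomain factor of hepatocytes and bile duct cells, and PROX1 is a homeodomain factor that guides early hepatoblasts and acts as a co-repressor in the adult liver. Nascent RNA at these genes reports how much transcription is under way and not the amount of mRNA or protein.

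The tissue was checked with marker genes. The summed signal of 6 hepatocyte markers (Alb, Ttr, Apoa1, Cps1, Cyp2e1 and Tat) ranged over the 12 libraries from 732.6 rpbp in ZT0 replicate 1 to 1961.7 rpbp in ZT20 replicate 2. That of 4 bile duct markers present in the table stayed between 1.0 and 2.5 rpbp, of 5 endothelial markers between 9.9 and 24.2 rpbp, of 5 stellate markers between 6.9 and 10.7 rpbp, and of 3 lymphocyte markers between 2.5 and 8.0 rpbp. The 5 markers of Kupffer and other myeloid cells summed to 14.7 to 49.7 rpbp, with the highest value in ZT8 replicate 1. No listed marker was at 0 in every library. In whole tissue, fewer cells of a type and less RNA per cell cannot be told apart. Another property differed between libraries: the median log2 deviation of GC-rich minus that of GC-poor genes reached −1.20 in ZT8 replicate 2, −0.58 in ZT20 replicate 2, 0.52 in replicate 1 of both ZT12 and ZT16 and 0.40 in ZT12 replicate 2. The exons of the members are GC-rich, from 51.2% in Prox1 to 67.2% in Cebpb, so values after removal of this trend are given beside the main results.

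The signal is per exon base, and levels were set side by side between genes on that scale. The study describes a gradient of nascent signal along many genes, and exon GC content and overlapping symbols differ between members. These were not corrected for between genes, so the order below is one of measured signal. Prox1 had the highest mean level, 54.0 rpbp ± 21.9 (SD, n = 12 libraries), above 97.0% of the 6284 symbols that passed 6 rpbp in at least 1 library. Cebpa followed at 24.5 ± 6.28 rpbp. Onecut1 (14.4 ± 19.3 rpbp), Cebpb (13.9 ± 10.8 rpbp), Foxa3 (11.7 ± 6.13 rpbp) and Foxa1 (8.95 ± 2.33 rpbp) formed the middle of the order. Foxa2 (6.07 ± 1.66 rpbp) and Cebpd (1.77 ± 1.11 rpbp) were lowest, and Cebpd stayed under 6 rpbp in all 12 libraries. Of the 28 pairs of members, 21 differed in level by an exact two-sided sign-flip permutation test on log2(rpbp + 1) with adjusted p under 0.05 over the 28.

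Neighbours in the order differed at the top and at the bottom. Prox1 was above Cebpa in 11 of 12 libraries by 1.04 ± 0.68 (SD) on the log2 scale (exact permutation test, adjusted p = 0.00182). Cebpa was above Onecut1 in 10 of 12 libraries (difference in log2 level 1.48 ± 1.61, exact permutation test, adjusted p = 0.0185). Foxa1 was above its paralogue Foxa2 in 11 of 12 libraries by 0.49 ± 0.31 on the log2 scale, with the same exact p as the pair Foxa2 and Cebpd. The 4 genes in the middle could not be ordered: Onecut1 and Cebpb (exact permutation test, adjusted p = 0.398), Cebpb and Foxa3 (0.594) and Foxa3 and Foxa1 (0.398) did not differ beyond their spread. Onecut1 had the higher mean but the lower median of its pair with Cebpb, 4.75 against 10.8 rpbp.

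The stretches of 250 bases before the annotated start are given for the 4 genes on which the results below turn: Cebpb, the member with a difference between time points, Foxa2 and Cebpa, the members called rhythmic, and Onecut1, the member that varied most between replicates. RefSeq promoters (GRCm38.p6) were given for 7 of the 8 members, with 10 entries in all, and not for Cebpd. Each entry was found at 1 position of mm9, the build of the files, whose coordinates follow. Capitals mark matches on either strand to 9 short strings of letters. The clock motifs searched were the E-box CACGTG, bound by CLOCK and BMAL1, and the D-box in the forms TTATGTAA and TTACGTAA. The cAMP response element was searched as TGACGTCA, the forkhead motif as TGTTTAC and the C/EBP motif as TTGCGCAA and TTGCACAA. The HNF6 motif was read as ATCAAT, and the motif of the TATA box as TATAAA. No pair of marked matches in these 4 stretches overlaps.
Cebpb, chr2:167514165-167514414, plus strand: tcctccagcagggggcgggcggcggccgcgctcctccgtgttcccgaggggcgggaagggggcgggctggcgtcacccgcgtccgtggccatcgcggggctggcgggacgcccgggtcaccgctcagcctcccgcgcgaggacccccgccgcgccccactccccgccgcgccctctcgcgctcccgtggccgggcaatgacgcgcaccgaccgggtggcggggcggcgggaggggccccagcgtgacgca
Foxa2, chr2:147872706-147872955, minus strand: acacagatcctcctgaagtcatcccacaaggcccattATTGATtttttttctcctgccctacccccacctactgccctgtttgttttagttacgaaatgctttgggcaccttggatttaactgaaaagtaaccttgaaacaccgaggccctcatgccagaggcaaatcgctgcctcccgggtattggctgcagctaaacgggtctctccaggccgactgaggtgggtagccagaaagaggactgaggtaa
Cebpa, chr7:35904062-35904311, plus strand: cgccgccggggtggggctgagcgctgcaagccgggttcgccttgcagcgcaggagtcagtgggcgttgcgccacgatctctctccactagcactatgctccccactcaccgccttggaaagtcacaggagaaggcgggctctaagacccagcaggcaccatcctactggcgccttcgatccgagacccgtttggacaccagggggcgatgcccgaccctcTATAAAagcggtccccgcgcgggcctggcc
Onecut1, chr9:74709478-74709727, plus strand: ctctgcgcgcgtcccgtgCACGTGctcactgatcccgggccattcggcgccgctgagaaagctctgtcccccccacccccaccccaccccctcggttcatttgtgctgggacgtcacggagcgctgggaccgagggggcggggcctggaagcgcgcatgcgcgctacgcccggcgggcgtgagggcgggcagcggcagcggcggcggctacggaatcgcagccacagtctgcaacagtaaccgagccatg

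The stretch before Cebpb held none of these letters and 81.6% G and C, the highest share among the 10 entries. In Foxa2 the HNF6 letters lay at −213 to −208 from the start, on the opposite strand, in the entry whose start equals the start of the gene in the table. The other 2 Foxa2 entries start 1021 and 1505 bases further in. The HNF6 letters occur in 7.54% of the 32851 RefSeq promoters. This and the shares below were counted over entries of equal length that also include bases after the start, a longer window than the stretches shown. Cebpa carried the TATA box letters at −30 to −25 and Foxa3 at −36 to −31, and Prox1 had them at −34 to −29 on the opposite strand. Foxa2 had them at −208 to −203 on the opposite strand, in the entry 1505 bases further in. Cebpb had them after its start, at 21 to 26. These letters occur anywhere, on either strand, in 13.6% of promoters. Onecut1 held an E-box at −232 to −227 (7.15% of promoters), in an entry that starts 13458 bases inside the span given for the gene in the table. Foxa1 held the forkhead letters at −141 to −135 on the opposite strand (3.65% of promoters). A match is a run of letters and not a site shown to be bound.

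**Figure D1:**
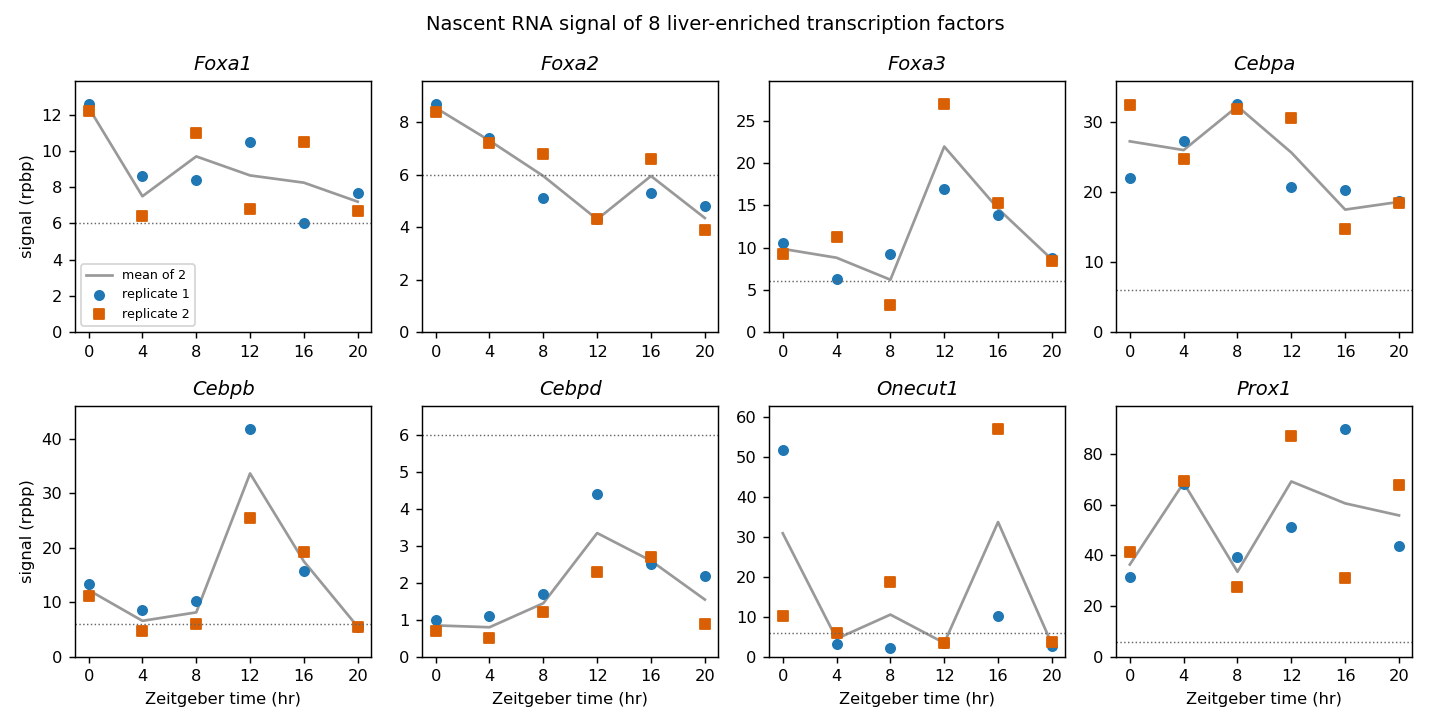
Nascent RNA signal (rpbp, linear axis from 0) of each of the 8 genes against zeitgeber time in hours; circles and squares are replicates 1 and 2, the grey line joins the means of the 2 replicates, and the dotted line marks 6 rpbp. Cebpb, Cebpd and Foxa3 had their highest mean at ZT12, Foxa1 and Foxa2 at ZT0 and Cebpa at ZT8, while the replicates of Onecut1 lay far apart at ZT0, ZT8 and ZT16.

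Among the C/EBP genes, Cebpb had the clearest difference over the day. Its signal was 41.9 and 25.4 rpbp at ZT12, 15.7 and 19.3 rpbp at ZT16, 13.3 and 11.2 rpbp at ZT0, 10.3 and 6.0 rpbp at ZT8, 8.5 and 4.7 rpbp at ZT4, and 5.5 rpbp in both libraries of ZT20. Both ZT12 libraries were above all 10 others, and the mean at ZT12 was 6.12 times the mean at ZT20. Across the 12 libraries Cebpb had r = 0.69 with the library's GC trend. Limma's moderated F-test, run on log2(rpbp + 1), gave Cebpb an adjusted p of 0.0124 for any difference among the 6 time points. It was the only 1 of the 7 members above the signal threshold that passed this test, where 7.65% of all 6284 tested symbols did. At an unadjusted p under 0.05 the test gave 3 of the 7 members, against 27.6% of all tested symbols, the others being Foxa2 and Foxa3, with adjusted p of 0.0707 and 0.0953 (with the GC trend taken out, 0.134 and 0.133). The Cebpb call held after removal of the GC trend (adjusted p = 0.0263), in the 4 time points of 1 lane alone (0.0483) and without each of the 12 libraries in turn, and was lost with no signal threshold (0.0587). The 5 markers of Kupffer and other myeloid cells, which also use C/EBPβ, summed to 36.9 and 39.4 rpbp at ZT12. In the other 10 libraries they summed to 14.7 to 49.7 rpbp. Of the 4 tested, Clec4f, a Kupffer cell lectin, itself differed between time points (limma, adjusted p = 0.0360). Emr1, Csf1r and Marco did not (limma, adjusted p = 0.493, 0.601 and 0.524). The part of these cells in the Cebpb signal was not tested.

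Cebpb lies at chr2:167514415-167515918 (mm9, plus strand) and is a gene of 1 exon in GENCODE M1. The symbol Tmem189, which encodes a membrane protein, spans chr2:167468725-167515322 in the table and so overlaps it. Tmem189 followed Cebpb with r = 0.98 over the 12 libraries at a lower level, 2.2 to 11.2 rpbp, with 11.2 and 8.5 rpbp at ZT12. Without strand, the reads of these overlapping symbols cannot be told apart where their exons coincide.

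A 24-hr rhythm was tested with F24, the share of a gene's variance over the 12 values that lies in a 24-hr cosine, with p from 100000 permutations of the values (one-sided). A gene was called rhythmic when F24 passed 0.45, the ratio of its highest to its lowest value passed 1.5 and the p was under 0.05 before adjustment, which held for 15.2% of all tested symbols. Of the 7 members tested, 2 were called, Cebpa and Foxa2, and none was strong (F24 over 0.6). With permutation p adjusted over all tested symbols (Benjamini-Hochberg) no member passed. An unadjusted p under 0.05 was found for 3 of the 7 members and for 16.4% of all tested symbols. The median F24 of the 7 was 0.388, against 0.222 over all tested symbols.

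Cebpb fell just outside the call. Its F24 was 0.438 with a phase of ZT12.9 (permutation p = 0.0448, adjusted p = 0.290), so it missed on F24 alone. The peak was narrow: ZT12 stood apart while ZT0, 12 hr away, was higher than ZT4 and ZT20. It was called after removal of the GC trend (F24 = 0.477, permutation p = 0.0289), after rescaling of the libraries (F24 = 0.460), with lanes as a block (F24 = 0.573), and without ZT0 replicate 1 (F24 = 0.517), ZT0 replicate 2 (0.480) or ZT8 replicate 2 (0.528). In both series of 6 libraries the highest Cebpb value was at ZT12.

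Cebpa, the family member tied to metabolic genes, had a flatter profile. Its signal was 32.6 and 31.9 rpbp at ZT8, 22 and 32.5 rpbp at ZT0, 27.3 and 24.7 rpbp at ZT4, 20.7 and 30.6 rpbp at ZT12, 20.3 and 14.7 rpbp at ZT16, and 18.7 and 18.5 rpbp at ZT20. The light-phase libraries of ZT4 and ZT8 were all above those of ZT16 and ZT20. F24 was 0.567 with a phase of ZT6.2 (permutation p = 0.0330, adjusted p = 0.256), and the fitted cosine ran over 12.8 rpbp from trough to peak. With lanes as a block the call was lost on its p (F24 = 0.574, permutation p = 0.0678), as it was without any 1 of the ZT8, ZT16 and ZT20 libraries (6 libraries, p from 0.0515 to 0.0725). The call held after removal of the GC trend (F24 = 0.489, permutation p = 0.0261). Limma's F-test gave an adjusted p of 0.182, and of 0.0616 with the GC trend removed.

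Cebpd, at chr16:15887379-15889638, had the lowest signal of the members. Its signal was 4.4 and 2.3 rpbp at ZT12, 2.5 and 2.7 rpbp at ZT16, 2.2 and 0.9 rpbp at ZT20, 1.7 and 1.2 rpbp at ZT8, 1.0 and 0.7 rpbp at ZT0, and 1.1 and 0.5 rpbp at ZT4. The 4 libraries of ZT12 and ZT16 were the highest of the 12. F24 was 0.680 with a phase of ZT13.7 (permutation p = 0.00295), the highest F24 among the members, but the gene did not enter the main test because of its level. With a threshold of 3 rpbp it was called, which made 3 of 8 members where 13.6% of 10382 symbols were called. Cebpd passed 3 rpbp only in ZT12 replicate 1, at its own highest time point. Its entry into that test was thus not independent of the peak it was called for. The Cebpd values are given to 1 decimal, so a step of 0.1 rpbp is a large share of the lowest of them. The overlapping symbol 2310008H04Rik stayed between 1.5 and 2.5 rpbp and had r = −0.37 with Cebpd.

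The highest mean was at ZT0 for Foxa1 and Foxa2 and at ZT12 for Foxa3, and of these 3 FOXA genes only Foxa2 was called rhythmic. Foxa2 was highest at ZT0, with 8.7 and 8.4 rpbp, both above all 10 other libraries. It had 7.4 and 7.2 rpbp at ZT4, 5.1 and 6.8 rpbp at ZT8, 4.3 rpbp in both libraries of ZT12, 5.3 and 6.6 rpbp at ZT16, and 4.8 and 3.9 rpbp at ZT20. Its values were lower at each successive time point from ZT0 to ZT12 in both series, and replicates of Foxa2 were close: time points held 90.9% of its variance, against a median of 63.3% over all tested symbols. F24 was 0.518 with a phase of ZT2.1 (permutation p = 0.0491, adjusted p = 0.303). An exact count over all 7484400 assignments of the libraries to time points, added after the values were seen, gave p = 0.0473.

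The rhythmic call of Foxa2 was close to its limits. It was lost on rescaling (F24 = 0.317, permutation p = 0.179), on removal of the GC trend (F24 = 0.351, permutation p = 0.148), on the log2 scale (permutation p = 0.0626) and with a replicate block (permutation p = 0.0683). It held without ZT20 replicate 1 (permutation p = 0.0498), ZT16 replicate 2 (0.0193) or ZT20 replicate 2 (0.0223) and was lost without any 1 of the other 9 libraries (permutation p from 0.0543 to 0.0982).

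Foxa3 was highest at ZT12, opposite to Foxa2. Its signal was 16.9 and 27.0 rpbp at ZT12, 13.9 and 15.3 rpbp at ZT16, 10.5 and 9.2 rpbp at ZT0, 6.3 and 11.3 rpbp at ZT4, 8.8 and 8.4 rpbp at ZT20, and 9.2 and 3.2 rpbp at ZT8. Both ZT12 libraries were above all 10 others, and the 4 libraries of ZT12 and ZT16 were the highest. F24 was 0.388 with a phase of ZT13.8 (permutation p = 0.0856). The lowest value, in ZT8 replicate 2, came from the library with the steepest loss of GC-rich genes. Without that library Foxa3 was called rhythmic (F24 = 0.547, permutation p = 0.0155), and with lanes as a block as well (F24 = 0.527, permutation p = 0.0274). Without ZT8 replicate 1 limma's F-test gave an adjusted p of 0.0325. Over the 12 libraries Foxa3 had r = 0.80 with the library's GC trend, the highest of the 8 members, followed by Cebpb (r = 0.69) and Cebpd (r = 0.47). The part of that trend in the Foxa3 result was not tested beyond its removal (F24 = 0.464, permutation p = 0.0511).

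Foxa1 had its highest pair at ZT0 too, 12.6 and 12.2 rpbp, both above all 10 other libraries. The other time points overlapped: 8.6 and 6.4 rpbp at ZT4, 8.4 and 11 rpbp at ZT8, 10.5 and 6.8 rpbp at ZT12, 6.0 and 10.5 rpbp at ZT16, and 7.7 and 6.7 rpbp at ZT20. F24 was 0.076 (permutation p = 0.682), and limma's F-test gave an adjusted p of 0.378. The replicates of ZT16, 6.0 and 10.5 rpbp, lay as far apart as the highest and lowest time-point means, which differed 1.72-fold.

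**Figure D2:**
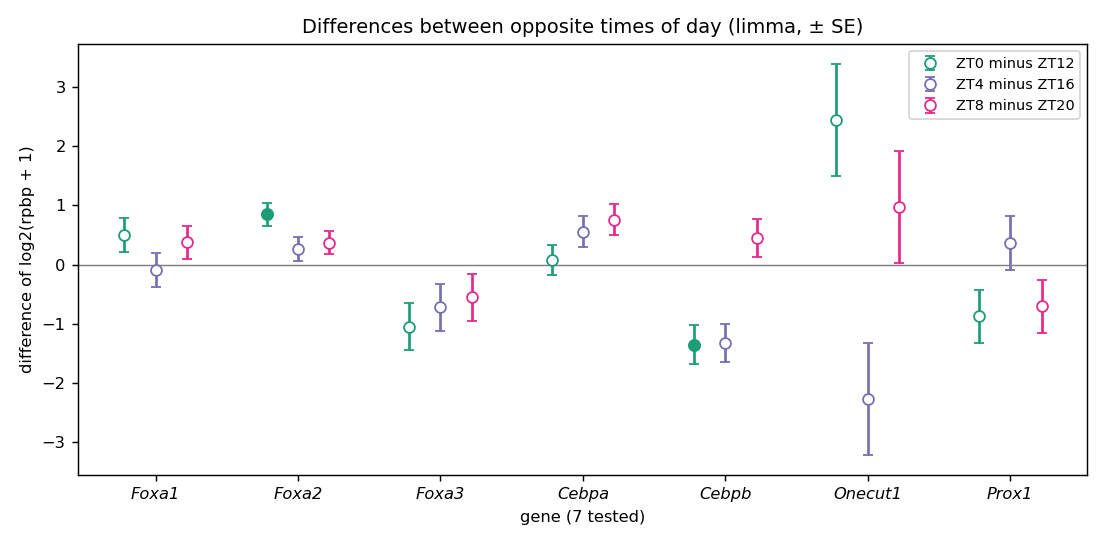
Difference of log2(rpbp + 1) between time points 12 hr apart for the 7 tested genes, with limma's standard error; filled points have an adjusted p under 0.05. Filled points are Foxa2 (0.85) and Cebpb (−1.35) for ZT0 minus ZT12, and the errors of Onecut1 are the widest.

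Times of day 12 hr apart were compared in the same limma fit. At ZT0 Foxa2 was higher than at ZT12 by 0.85 ± 0.20 (SE) on the log2 scale (limma, adjusted p = 0.0390), 8.55 against 4.30 rpbp. Cebpb was lower at ZT0 than at ZT12 by the difference −1.35 ± 0.33 (limma, adjusted p = 0.0456), 12.3 against 33.7 rpbp. These were 2 of 7 members, where 4.44% of all tested symbols passed. At an unadjusted p under 0.05 there were 4 of 7, against 18.4% of all tested symbols. Foxa3 (−1.05 ± 0.40, adjusted p = 0.184) and Onecut1 (2.45 ± 0.95, adjusted p = 0.199) had differences larger in size than that of Foxa2 but did not pass. The same held for Prox1 (−0.87 ± 0.45, limma, adjusted p = 0.345). After removal of the GC trend neither Foxa2 (0.98, limma, adjusted p = 0.0544) nor Cebpb (−1.19, adjusted p = 0.0688) passed. Cebpb also missed the threshold after rescaling (−1.32, adjusted p = 0.0707) and with a pseudocount of 0.1 (−1.41, adjusted p = 0.0631). The Foxa2 call was lost without any 1 of the libraries of ZT0, ZT4, ZT12 and ZT20 (8 libraries, adjusted p from 0.0619 to 0.217), and the Cebpb call without any 1 of ZT0, ZT12 and ZT20 (6 libraries, adjusted p from 0.0568 to 0.244).

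Between ZT4 and ZT16 no member passed in the same limma fit (0 of 7, where 2.1% of all tested symbols passed). At an unadjusted p under 0.05 there were 2 of 7, against 19.4% of all tested symbols. Cebpb came closest, at 6.60 against 17.5 rpbp (−1.32 ± 0.33, adjusted p = 0.0688). Between ZT8 and ZT20 no member passed either (0 of 7, where 1.58% of all tested symbols passed). At an unadjusted p under 0.05 there was 1 of 7, against 12.6% of all tested symbols. That 1 was Cebpa, 32.3 against 18.6 rpbp (0.76 ± 0.26, adjusted p = 0.207, or 0.96 and 0.0605 with the GC trend removed), between time points that were both sequenced in 2 lanes.

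**Figure D3:**
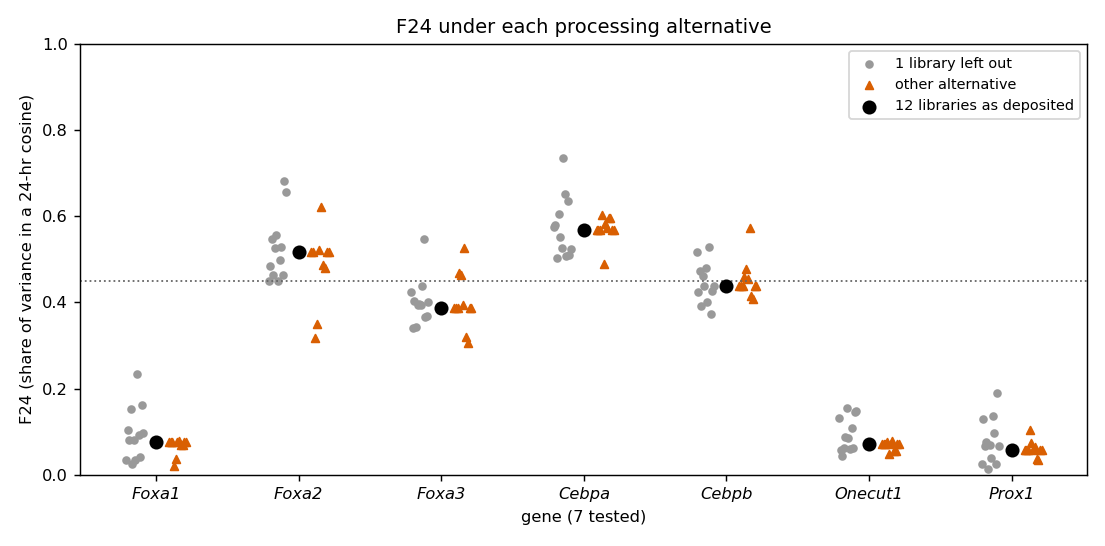
F24 of the 7 tested genes with all 12 libraries as deposited (black), with 1 library left out (grey) and under the other processing alternatives (triangles); the dotted line is the limit of 0.45. Cebpa stayed above the limit in every case shown, Foxa2, Foxa3 and Cebpb crossed it, and Foxa1, Onecut1 and Prox1 stayed below it.

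Onecut1 varied between replicates more than any other member. Its signal was 51.6 and 10.2 rpbp at ZT0, 10.3 and 57.1 rpbp at ZT16, 2.3 and 18.8 rpbp at ZT8, 3.1 and 5.9 rpbp at ZT4, 3.4 and 3.5 rpbp at ZT12, and 2.7 and 3.6 rpbp at ZT20. Replicates taken at the same time of day thus differed 5.06-fold at ZT0, 5.54-fold at ZT16 and 8.17-fold at ZT8, whereas all 4 libraries of ZT12 and ZT20 lay between 2.7 and 3.6 rpbp. The coefficient of variation over the 12 libraries was 1.34, above 99.4% of all tested symbols, and the median difference between replicates on the log2 scale, 1.49, was above 99.9% of them. Neither F24 (0.072, permutation p = 0.710) nor limma's F-test (adjusted p = 0.187) passed.

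The libraries with high Onecut1 had other features. The summed hepatocyte markers were 732.6 rpbp in ZT0 replicate 1 and 849.0 rpbp in ZT16 replicate 2, which had the highest Onecut1. They were 1864.5 rpbp in ZT8 replicate 2, with 18.8 rpbp of Onecut1, and 832.6 rpbp in ZT16 replicate 1, with 10.3 rpbp. The markers of bile duct cells, which also use ONECUT1, summed to 2.1 rpbp in ZT0 replicate 1 and 1.5 rpbp in ZT16 replicate 2. Both sums were within the range of the other libraries. ZT16 replicate 2 also had the largest median shift of all genes among the libraries, −0.23 on the log2 scale, and after rescaling for it the F24 of Onecut1 had an exact permutation p of 0.706. The part of these features in the Onecut1 values was not tested.

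The symbols most like Onecut1 over the 12 libraries were Cish (r = 0.93), Scp2 (r = 0.92) and EG13909 (r = 0.92), listed as a description after the values were seen. Cish, a feedback inhibitor of cytokine and growth hormone receptor signalling, had 13.6 rpbp in ZT0 replicate 1 and 18.9 rpbp in ZT16 replicate 2, and 0.5 to 3.6 rpbp in the other 10. Scp2, a sterol and lipid carrier, had 202.2 and 211.9 rpbp in that pair of libraries, 119.8 and 123 rpbp in ZT0 replicate 2 and ZT8 replicate 2, and 38.5 to 74.9 rpbp in the rest. The most opposite was Dgat2, an enzyme of triglyceride synthesis (r = −0.89). Without the 2 libraries farthest from the median of Onecut1, r was 0.75 for Cish, 0.78 for Scp2 and 0.88 for EG13909.

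**Figure D4:**
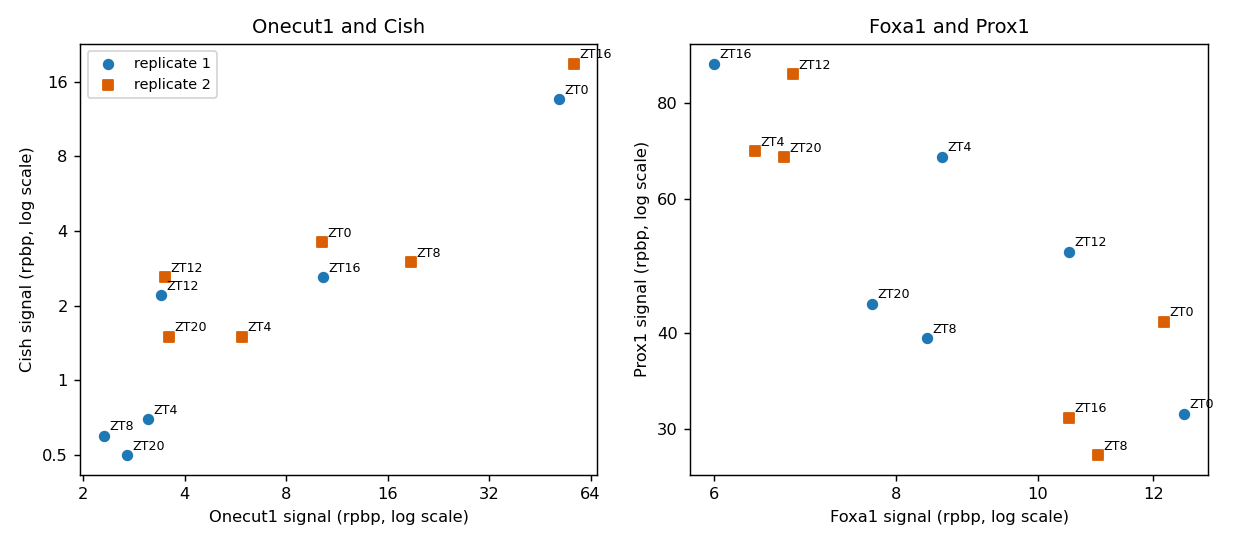
Left, Onecut1 against Cish; right, Foxa1 against Prox1; each point is 1 of the 12 libraries (rpbp, log axes), marked with its time point and replicate. ZT0 replicate 1 and ZT16 replicate 2 lie apart in the left plot, and in the right plot Prox1 is lower where Foxa1 is higher.

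Prox1, the member with the highest signal, also varied between replicates. Its signal was 31.4 and 41.4 rpbp at ZT0, 68.1 and 69.2 rpbp at ZT4, 39.4 and 27.7 rpbp at ZT8, 51.1 and 87.3 rpbp at ZT12, 90.1 and 31.0 rpbp at ZT16, and 43.7 and 67.9 rpbp at ZT20. The ZT4 replicates nearly coincided, and those of ZT16 held both the highest and nearly the lowest value of the gene. F24 was 0.058 (permutation p = 0.748), and limma's F-test gave an adjusted p of 0.353. Time points held 46.4% of the variance of Prox1 and 49.0% of that of Onecut1, the lowest shares among the members.

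Prox1 and Foxa1 moved in opposite directions between libraries. Over the 12 libraries they had r = −0.82 (permutation p = 0.00203) and rho = −0.79 (permutation p = 0.00368), with an adjusted p for r of 0.0568 over the 28 pairs of members. At each of the 6 time points, the replicate with more Foxa1 had less Prox1, and after removal of the time-point means r was −0.90. Without the 2 libraries farthest from the median of Foxa1 r was −0.82, and in the 8 libraries of 1 lane it was −0.90 (permutation p = 0.00613). The adjusted p over 28 was 0.0418 after rescaling, where 4 pairs passed, and 0.0070 after removal of the GC trend (r = −0.89), where this pair alone passed. The pair was not fixed for testing and was chosen after the 28 coefficients were seen. The transcript AK142161 overlaps the start of Prox1 (chr1:191994175-192041155, with Prox1 at chr1:191945658-191994559), was at 36.1 rpbp on average and had r = 0.80 with Prox1.

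Of the 6 pairs within a family, Cebpb and Cebpd had r = 0.75 (permutation p = 0.00476, adjusted over 6 = 0.0286) and rho = 0.71 (permutation p = 0.0122, adjusted over 6 = 0.0734). Both had their highest values at ZT12 and ZT16, and r was 0.73 after removal of the time-point means. It was 0.53 without the 2 libraries farthest from the median of Cebpb, 0.60 without ZT12 replicate 1 and 0.91 in the 8 libraries of 1 lane (permutation p = 0.00195). With the GC trend removed r was 0.66 and no longer passed (adjusted over 6 = 0.0607). After rescaling it was 0.77 (adjusted over 28 = 0.0418). Foxa1 and Foxa2 had r = 0.57 (permutation p = 0.0547, adjusted over 6 = 0.164). Foxa2 and Foxa3 had r = −0.38 (permutation p = 0.231, adjusted over 6 = 0.347) over 12 libraries and −0.80 in the 8 of 1 lane (permutation p = 0.0139). With the GC trend removed their r was −0.61 (permutation p = 0.0337, adjusted over 6 = 0.0674). The 2 other C/EBP pairs and the pair Foxa1 and Foxa3 had r between −0.39 and −0.12.

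**Figure D5:**
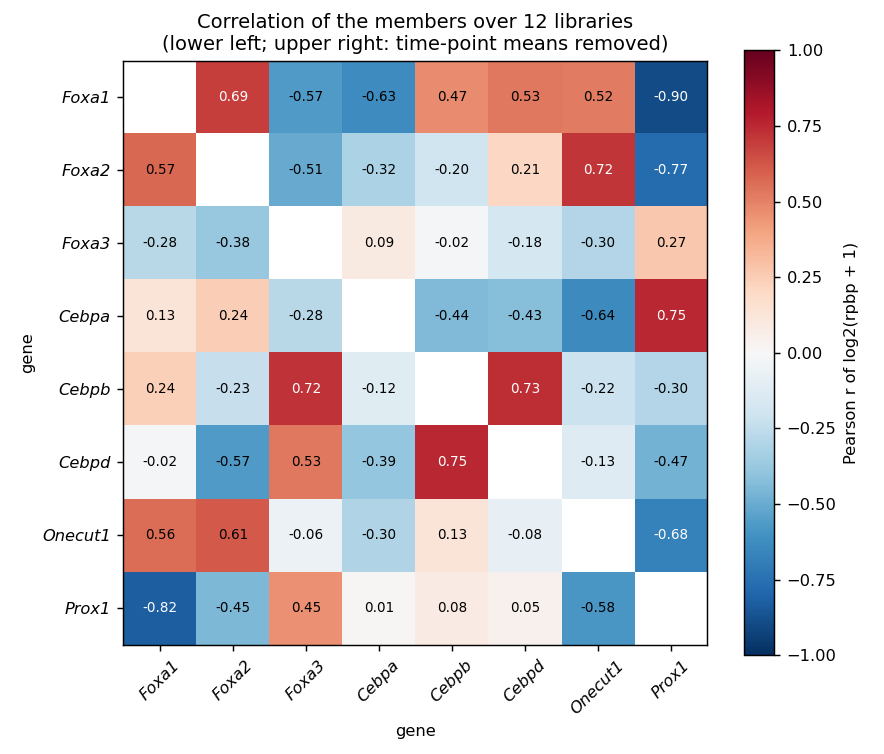
Pearson r of log2(rpbp + 1) for the 28 pairs of members over 12 libraries (lower left), and the same after removal of the time-point means (upper right). Lower left, the values farthest from 0 are Foxa1 with Prox1 (−0.82), Cebpb with Cebpd (0.75) and Foxa3 with Cebpb (0.72, but −0.02 upper right). Upper right, they are Foxa1 with Prox1 (−0.90), Foxa2 with Prox1 (−0.77) and Cebpa with Prox1 (0.75).

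Across families, Foxa3 and Cebpb had r = 0.72 (permutation p = 0.00766, adjusted over 28 = 0.0715) and rho = 0.74, while r was −0.02 after removal of the time-point means and 0.74 after rescaling (adjusted over 28 = 0.0423). Onecut1 and Foxa2 had r = 0.61 (permutation p = 0.0365, adjusted over 28 = 0.207), with 0.72 after removal of the time-point means, and r was 0.48 without ZT0 replicate 1 and 0.75 after rescaling (adjusted over 28 = 0.0418). With all 12 libraries as deposited, no pair passed an adjusted p under 0.05 over the 28 (5 pairs at an unadjusted permutation p under 0.05 for r and 3 for rho).

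The symbols most like the members with a call were listed as a description, over 12 libraries and without overlap with the member. For Cebpb these were Nat6 (r = 0.95), Hyal1 (0.93) and Apbb3 (0.92), and Nat6 had 60.9 and 50.2 rpbp at ZT12 against 24.7 to 44.8 rpbp in the others. For Foxa2 they were Hipk2 (r = 0.90), a nuclear kinase, ire1 (0.88), a sensor of unfolded protein in the endoplasmic reticulum, and Frrs1 (0.86). Hipk2 had 26.6 and 29.4 rpbp at ZT0 and at most 18.3 rpbp in the other 10 libraries, so its highest time point was that of Foxa2. For Cebpa they were Gcdh (r = 0.95), an enzyme of lysine breakdown in mitochondria, Pex19 (0.92), a chaperone for peroxisomal membrane proteins, and Nfx1 (0.90). For Cebpd the closest was Klf13 (r = 0.90), chosen after its values were seen.

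Relatives of the members in their gene families were set beside them. Of 20 listed, 19 were in the table and 11 passed 6 rpbp. Called rhythmic were 2 of the 11, where 15.2% of all tested symbols were. These were Foxo1, a forkhead factor restrained by insulin (F24 = 0.591, phase ZT12.7, permutation p = 0.00213), and Foxn3 (F24 = 0.632, phase ZT1.3, permutation p = 0.0158). Foxo1 alone passed limma's F-test (adjusted p = 0.0174), 1 of 11 where 7.65% of all tested symbols passed. At an unadjusted p under 0.05 that test gave 4 of 11, against 27.6% of all tested symbols. Foxo1 was also lower at ZT0 than at ZT12 (−1.39, limma, adjusted p = 0.00412), the direction seen for Cebpb. It was the only 1 of the 11 to pass that contrast, where 4.44% of all tested symbols did. Onecut2, the paralogue of Onecut1, was at 13.9 to 36.2 rpbp and its lowest value was above those of Onecut1 in all libraries but ZT0 replicate 1, ZT8 replicate 2 and ZT16 replicate 2, while Onecut3 was listed at 0 in all 12 libraries.

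Of 20 other regulators of the hepatocyte programme, 19 were tested. None was called rhythmic, where 15.2% of all tested symbols were. At an unadjusted permutation p under 0.05 there were 0, against 16.4% of all tested symbols. None passed limma's F-test after adjustment, where 7.65% of all tested symbols did. At an unadjusted p under 0.05 that test gave 5 of 19, against 27.6% of all tested symbols. Hnf4a, a master regulator of hepatocyte genes, had 29.0 to 83.3 rpbp (adjusted p = 0.166), and Rxra, the shared partner of many nuclear receptors, had 36.5 to 86.3 rpbp (adjusted p = 0.0671). Zbtb20, a zinc finger repressor, was lower at ZT0 than at ZT12 (−0.82, limma, adjusted p = 0.0452). It was the only 1 of the 19 to pass that contrast, where 4.44% of all tested symbols did. The median F24 of the 19 was 0.206, against 0.222 over all tested symbols.

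Of 20 liver genes with known sites for these factors, 18 were tested. Limma's F-test gave 11 of these at an unadjusted p under 0.05, against 27.6% of all tested symbols. Called rhythmic were 3 of the 18 (15.2% of all tested symbols), and 4 passed limma's F-test after adjustment (7.65% of all tested symbols). Cyp7a1, the rate-limiting enzyme of bile acid synthesis, did both (F24 = 0.604, phase ZT13.2; limma, adjusted p = 0.0142), as did Gys2, the liver glycogen synthase (F24 = 0.474, phase ZT7.3; limma, adjusted p = 0.0172). Hp, the plasma protein haptoglobin, was called rhythmic (F24 = 0.647, phase ZT14.0, permutation p = 0.00833). Pck1, an enzyme of glucose synthesis (adjusted p = 0.0172), and Tat, which degrades tyrosine (adjusted p = 0.0482), passed the F-test alone. Pck1 was lower at ZT0 than at ZT12 by the difference −3.34 on the log2 scale (limma, adjusted p = 0.00412) and Cyp7a1 by −2.85 (adjusted p = 0.00733). These were 2 of the 18, where 4.44% of all tested symbols passed that contrast. The albumin gene Alb, the most abundant of the list, ranged from 160.3 to 951.7 rpbp and did not pass (adjusted p = 0.118).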

How the data were processed

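Nascent RNA of mouse liver was profiled in 12 libraries, grouped by the time point and replicate number in their labels. The authors mapped the reads to mm9 (CASAVA 1.7 and TopHat, per the submitters' processing notes), counted uniquely mapped reads over the exons of each symbol without strand, and deposited this signal per exon base pair (rpbp), normalized to sequencing depth and rounded to 1 decimal. The authors also deposited a phase, the fraction F24 and a p-value per gene, which were not used. Raw depth per library is not in this signal, and the summed rpbp ranged from 118342 to 160545, so precision was taken from the 2 replicates per time point.

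The 8 members and all lists were chosen with earlier results of these data known. The 6284 symbols that exceeded 6 rpbp anywhere were tested. F24 and the limits for a rhythm follow the methods of the study, with more permutations (100000) than were used there. Limma 3.58.1 (R 4.3.3) was run on log2(rpbp + 1), a scale that understates fold changes of low genes, with Benjamini-Hochberg adjustment over all tested symbols, for an F-test over 6 time points and 3 contrasts. Levels were compared with sign-flip permutation tests over 4096 sign patterns, and correlations with 100000 permutations, in Python 3.11.15 (numpy 2.4.6). Rhythm and F-tests were tested on simulated data. Named were all members, symbols overlapping them, list members that passed a test, and the 3 symbols most correlated with each member that had a call. Any other symbol, and the 22 correlations between families, were added after the values were seen. Exon GC content (GENCODE M1, NCBIM37) covered 96.9% of tested symbols. Its trend was removed in 20 bins as an alternative. The other alternatives were the signal threshold, the pseudocount, rescaling by the median ratio, blocks by lane or replicate, and omission of each library. Some symbols are not reported here.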

Additional observations from a re-analysis of the deposited data

How the results depend on the processing

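Recomputed counts of members or pairs stayed within 1.5 times the reported count in 69 cases, were lower in 28 and higher in 1. The 69 include the counts of 0 between ZT4 and ZT16 and between ZT8 and ZT20, which could not become lower. They also include cases where 2 became 3 or where the count stayed and the genes called changed. The 69 are thus not a measure of how stable the calls were. Members called rhythmic numbered 2, and 1 with a threshold of 12 rpbp, with a replicate block, on log2(rpbp + 1) or on log2(rpbp + 0.1), and 0 with adjusted permutation p or with limma's cosine terms. The number was 3 with lanes as a block (Foxa2, Foxa3 and Cebpb, without Cebpa), and 3 with a threshold of 3 rpbp or none, where Cebpd joined. At 3 rpbp Cebpd entered only through ZT12 replicate 1. After rescaling and after removal of the GC trend the number stayed 2, with Cebpb in the place of Foxa2. Without single libraries the members called rhythmic numbered 0 to 2. Among these alternatives the share of all symbols called is given only for the threshold of 3 rpbp (13.6%). Whether the other changes in count are particular to the members was not tested. The F-test gave 1 member (Cebpb) and 0 with no signal threshold, and 1 to 2 without single libraries (2 without ZT8 replicate 1, where Foxa3 joined). Between ZT0 and ZT12, 2 members passed, against 1 after rescaling and 1 with a pseudocount of 0.1 (Foxa2 in both), and 0 with the GC trend removed. Without single libraries this count was 0 to 2. Between ZT4 and ZT16 and between ZT8 and ZT20 the count was 0 to 0. The pairs that differed in level numbered 21 under both alternatives, a pseudocount of 0.1 and removal of the GC trend. That removal works on deviations from each gene's own mean and leaves mean levels nearly unchanged. It therefore cannot test an effect of GC content on levels between genes. The 1 within-family correlation became 0 after removal of the GC trend. The cause of these changes was not tested.

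The replicate numbers are not stated to pair libraries. Deviations of same-numbered libraries from their time-point means correlated between −0.12 and 0.32, above 0.1 in 5 of 15 pairs, so the numbers were not taken as a pairing. With a replicate block the F-test still gave 1 member (Cebpb, adjusted p = 0.0154) and the contrast of ZT0 and ZT12 gave 2. With 2 libraries per time point and values rounded to 1 decimal, differences in Cebpd and other low signals are the least certain.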
